A study of Mus musculus with 2 samples.

Results

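The genes described here were Ly6a, Ly6e, Ly6c2 and Ly6d, 4 of the 32285 genes in the count tables of splenic DC from mice with and without H2-Aa. Their rows were taken by gene symbol, and they were chosen because of their UMI counts in these same libraries, so their levels and ratios are a description. CD45.2+ CD11c+ cells were sorted from the spleens of naive female mice aged 4 months and profiled by droplet scRNA-seq, in which a UMI marks 1 captured RNA molecule. The WT library was made from H2-Aa +/+ mice and the cit library from H2-Aa cit/cit mice, with 3 mice pooled in each and no record of which mouse a cell came from. The cit allele is a germline ENU-induced splice mutation in the α chain gene of MHC-II I-A, present in every cell of the mouse. With 1 library per genotype there was no replicate error and no test, and intervals are exact 95% intervals that cover counting error only.

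The Ly6 genes encode small cysteine-rich proteins of the LU (Ly6/uPAR) fold, most of which are held on the outer face of the plasma membrane by a GPI anchor. Ly6a encodes Sca-1, which marks hematopoietic progenitors and many activated leukocytes, and Ly6e encodes a broadly expressed surface protein. Both, and Ly6c2 as well, are known as genes that interferons induce. Ly6c2 encodes a Ly6C antigen that marks classical monocytes and plasmacytoid DC (pDC), and Ly6d marks B cell-committed progenitors and the lymphoid progenitors of pDC.

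The 4 genes lie in 1 cluster on mouse chromosome 15, between 74762056 and 75111970 in GRCm38 (GENCODE M21). From the proximal end these were Ly6d (chr15:74762056-74763620, minus strand, 3 exons), Ly6e (chr15:74955051-74959905, plus strand, 4 exons), Ly6a (chr15:74994877-74998031, minus strand, 4 exons) and Ly6c2 (chr15:75108158-75111970, minus strand, 4 exons). Of the 17 genes of the count tables in this interval, 6 had over 100 UMIs in either library, namely the 4 members, Ly6i and the lincRNA Gm39556. The coding sequences of Ly6a and Ly6c2 were 81.6% identical and those of Ly6a and Ly6e 53.5%. Among the genes compared, the closest copy of Ly6c2 was Ly6c1, with 97.7% identical coding bases. Of 50-base windows in the last 500 bases of the transcript, 20.6% in Ly6c2 and 4.43% in Ly6a also occurred in a transcript of another gene, and 0 of 451 did in Ly6e or Ly6d. Ly6c1 had 1 UMI in the WT and 2 in the cit library, against 1930 and 2575 for Ly6c2, and reads that could not be split between these copies make both counts uncertain.

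The start regions of this pair are shown because the genes are near copies of which only Ly6c2 was detected beyond a few UMIs. RefSeq start regions (GRCm38.p6, 250 bases before to 50 bases after the start) were at hand for 1 of the 4 members, Ly6c2 (chr15:75111922-75112221, minus strand), and for Ly6c1 (chr15:75048788-75049087, minus strand). Ly6a, Ly6e and Ly6d had no entry. Capitals mark the longest run of bases that both share, 20 bases that end 45 bases before the start of Ly6c2 and 20 bases before that of Ly6c1.
Ly6c2: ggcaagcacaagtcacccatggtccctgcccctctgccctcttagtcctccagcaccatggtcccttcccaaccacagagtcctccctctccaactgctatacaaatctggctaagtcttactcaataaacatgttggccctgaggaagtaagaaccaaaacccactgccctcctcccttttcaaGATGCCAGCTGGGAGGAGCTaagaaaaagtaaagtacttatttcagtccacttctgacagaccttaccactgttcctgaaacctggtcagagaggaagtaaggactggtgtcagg
Ly6c1: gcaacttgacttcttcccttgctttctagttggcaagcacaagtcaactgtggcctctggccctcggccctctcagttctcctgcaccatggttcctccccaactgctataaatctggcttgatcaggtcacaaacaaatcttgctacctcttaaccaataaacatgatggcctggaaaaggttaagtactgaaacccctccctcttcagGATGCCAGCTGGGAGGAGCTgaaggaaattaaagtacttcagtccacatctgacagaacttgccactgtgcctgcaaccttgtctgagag
Aligned end to end, the regions were 62.3% identical. The interferon-stimulated response element TTTCNNTTTC and the gamma-activated site TTCNNNGAA, searched on both strands, had 0 matches in either region, against 3.44% and 8.3% of 32851 start regions in the table that held them. No match says only that these letters are absent from these windows.

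The WT library held 7814 cells and 51020804 UMIs, and the cit library 11525 cells and 72652201 UMIs, with medians of 5492 and 5633 UMIs per cell. H2-Aa had a level of 5410 CPM (UMIs scaled to a library or class total of 1000000) in WT and 66.2 CPM in cit cells, and between 40.2 and 81.5 CPM in each of the 11 cit classes described. A total of 31 barcodes occurred in both libraries, and leaving out those cells turned no direction below. Cells were put in classes by the number of markers of a list detected in each cell, none of them a member gene. The pDC-like cells (97 WT and 103 cit) needed 6 of 10 pDC markers with Siglech, a lectin of pDC, and without Cx3cr1 or Csf1r. Cells with both Siglech and Cx3cr1 (56 and 84) formed a class of their own. The cDC2-like cells were split into Ccr2+ (195 and 616), Ffar2+ (1629 and 4094) and other cells (572 and 1477). Cells with Xcr1 or Clec9a made up the cDC1-like class (540 and 656) and those with Ccr7 or Fscn1 the mature CCR7+ class (2071 and 1346). The rest were proliferating cells (277 and 576), Adgrl3-rich cells (1242 and 1282), monocyte-like cells with Ace and Fabp4 (122 and 135) and C1q macrophage-like cells (172 and 111), and 9.93% of WT and 8.53% of cit cells were unassigned. A few neutrophil-like, NK-like, T-like, B-like, plasma-like and erythroid-like cells were set aside as well. Levels by class below cover the other 11 classes. All markers of each list were detected in its class. The Adgrl3 list came from the study's own markers of these samples. The leading genes of the macrophage-like class included 3 erythroid genes beside 5 of its own markers.

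Over all cells, the WT and cit levels were 27.9 and 68.3 CPM for Ly6a and 380 and 588 CPM for Ly6e. Ly6c2 was at 37.8 and 35.4 CPM and Ly6d at 47 and 17.6 CPM. The log2 ratio of cit to WT was thus 1.29 for Ly6a (interval 1.21 to 1.38), 0.63 for Ly6e (0.61 to 0.65), -0.094 for Ly6c2 (-0.18 to -0.0081) and -1.42 for Ly6d (-1.52 to -1.32). At a limit of 1.5-fold, Ly6a and Ly6e were among the 3.57% of 6816 genes that were higher, and Ly6d was among the 7.2% that were lower. Because the members were chosen on this contrast, nothing is read from their count. The pDC-like cells were 1.24% of WT and 0.894% of cit cells, and they held 2.005% of WT and 1.008% of cit UMIs. A ratio over all cells does not by itself separate a smaller share of a class from a lower level within it. Ratios within classes are given below. Without the pDC-like cells, the log2 ratio was 2.62 for Ly6a, 0.71 for Ly6e, 0.52 for Ly6c2 and -1.26 for Ly6d. Most of the Ly6d UMIs left, 198 in WT and 108 in cit cells, were in unassigned cells. Some of these cells mixed pDC and myeloid markers.

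**Figure D1:**
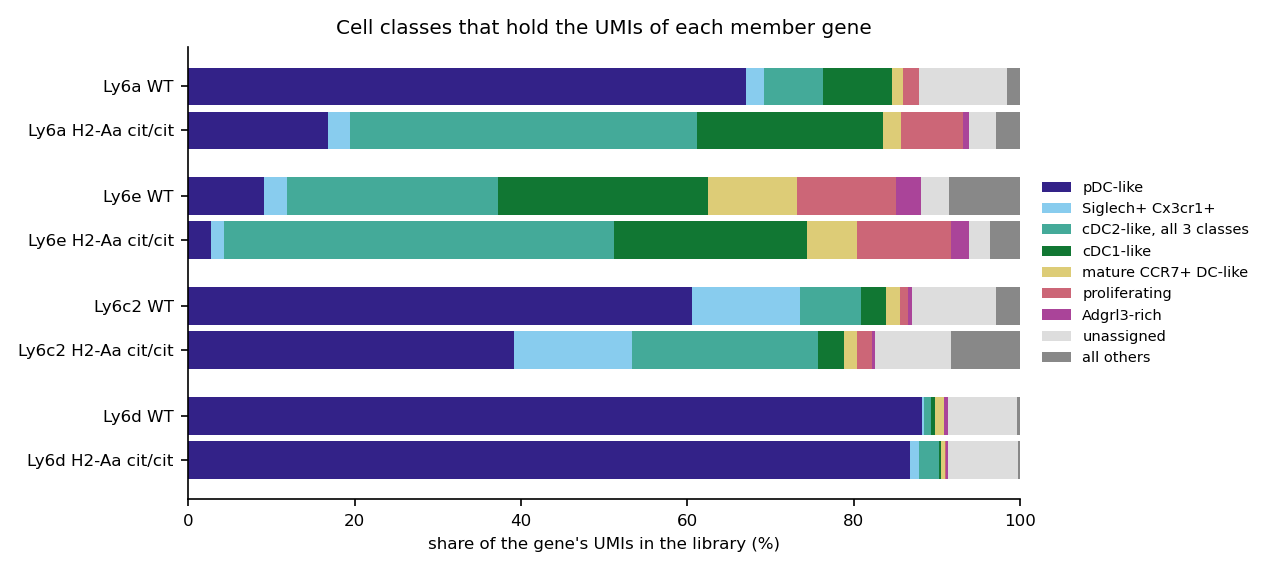
Share of each member gene's UMIs (%, horizontal axis) held by each cell class, for each gene and library; the 3 cDC2-like classes are drawn together, and "all others" holds monocyte-like, macrophage-like and minor classes. The pDC-like segment of Ly6a takes 67.1% of the WT bar and 16.8% of the cit bar, whereas it takes 88.2% and 86.7% for Ly6d.

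The classes that held Ly6a differed between the libraries. In the WT library it was concentrated in pDC-like cells, which had 953 of the 1421 UMIs of the library (67.1%) and a level of 932 CPM. The next WT level was 50.7 CPM, in Siglech+ Cx3cr1+ cells. In the cit library, pDC-like cells were at 1136 CPM but held 832 of 4960 UMIs (16.8%), while Ffar2+ cDC2-like cells held 23.3% and cDC1-like cells 22.3%.

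In Ffar2+ cDC2-like cells, the largest class of the cit library, Ly6a had 4.13 CPM in WT (49 UMIs) and 42.9 CPM in cit cells (1157 UMIs), a log2 ratio of 3.38 (2.97 to 3.82). Of 6570 genes that reached 20 CPM in this class of 1 library or both, 1 had a higher ratio. The other cDC2-like cells went from 5.04 CPM in WT to 61.7 CPM in cit cells (log2 ratio 3.61, 2.82 to 4.53), and 3 of 6741 genes had a higher ratio. In both classes Ly6a reached 20 CPM in the cit library only. Because it was also chosen on these counts, nothing is read from its rank. In Ccr2+ cDC2-like cells the levels were 19.7 and 91.1 CPM (2.21, 1.74 to 2.72). All 3 classes of cDC2-like cells thus had more Ly6a in the cit library, and none of the intervals reached 0.

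In cDC1-like cells, which are specialized in cross-presentation, Ly6a had levels of 20 and 121 CPM (log2 ratio 2.60, 2.32 to 2.89). Proliferating cells had 8.43 and 59.2 CPM (2.81, 2.25 to 3.43). Mature CCR7+ cells, which have left the resting state and carry the receptor for migration to T cell zones, had low levels in both libraries, 1.19 CPM (19 UMIs) in WT and 12.5 CPM (108 UMIs) in cit cells (3.39, 2.68 to 4.18). Among mature cells without any of 7 cDC1 markers, the levels were 0.855 and 7.79 CPM, and among those with 1 or more they were 1.68 and 26.4 CPM. Adgrl3-rich cells had 1 UMI in WT and 39 in cit cells, a 47.8-fold ratio with an interval of 8.09 to 1936. Monocyte-like cells were at 22.2 and 97.1 CPM (2.13, 1.40 to 2.93). Macrophage-like cells had 3 and 34 UMIs (17.8-fold, 5.59 to 90.5), and 15 of the 34 were in 1 cell. Some of these sizes depended on the gate or the measure. With every cell put in the class of which it had the highest share of markers, the log2 ratio of Ly6a was 2.59 in Adgrl3-rich and 2.47 in other cDC2-like cells, and as a mean over cells of UMIs per 10000 it was 2.13 in mature CCR7+ cells.

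The smallest difference in Ly6a was in pDC-like cells, at a log2 ratio of 0.29 (0.15 to 0.42), where 21.9% of 7079 genes had a higher ratio. In Siglech+ Cx3cr1+ cells the levels were 50.7 and 151 CPM (1.58, 0.997 to 2.20), and 38 of the 132 cit UMIs were in 1 cell. The ratio was thus above 0 in 11 of 11 classes and at least 1.5-fold in 10. The share of genes at least 1.5-fold higher was 8.37% in Siglech+ Cx3cr1+ cells, 3.8% in Ccr2+, 2.07% in Ffar2+ and 3.92% in other cDC2-like cells. It was 9.27% in cDC1-like, 3.01% in proliferating, 7.01% in mature CCR7+, 2.73% in Adgrl3-rich, 6.87% in monocyte-like and 12.5% in macrophage-like cells, and 7.36% in pDC-like cells. In mature CCR7+ and Adgrl3-rich cells, Ly6a was below the 20 CPM that these shares required. Whether the ratio differs between classes was not tested.

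The order of the Ly6a levels was headed by pDC-like and Siglech+ Cx3cr1+ cells in both libraries and ended with mature CCR7+ and Adgrl3-rich cells. In WT, pDC-like cells were separated from the next class, whereas the intervals of Siglech+ Cx3cr1+, monocyte-like, cDC1-like and Ccr2+ cells overlapped those of their neighbors. In cit cells, pDC-like cells were again separate, the levels from Siglech+ Cx3cr1+ to Ccr2+ cells (91.1 to 151 CPM) overlapped from neighbor to neighbor, and Ffar2+ cells stood below the other cDC2-like cells.

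**Figure D2:**
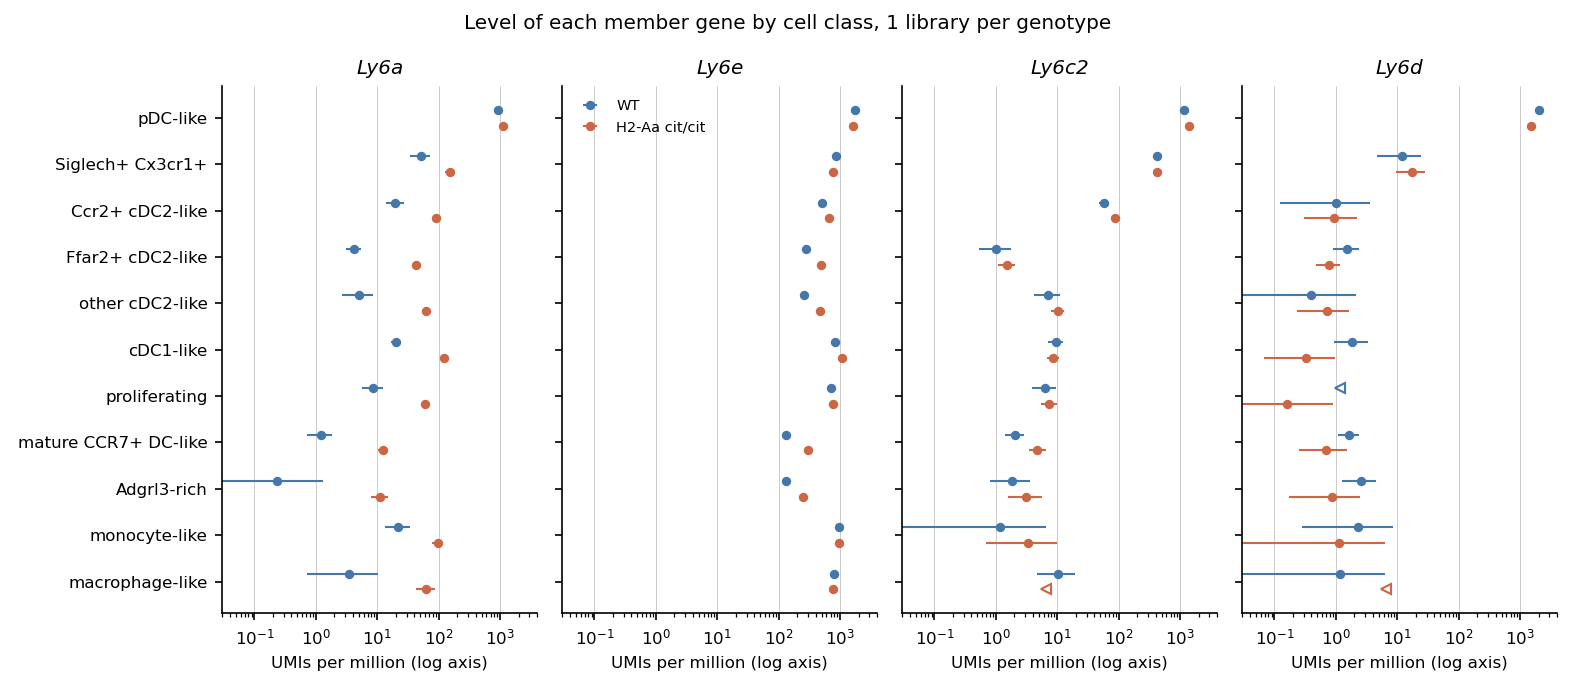
Level of each member gene (CPM, log axis) in 11 cell classes of the WT (blue) and H2-Aa cit/cit (orange) library; points are levels, bars exact 95% Poisson intervals, and open triangles upper limits where a class had 0 UMIs. The cit points of Ly6a lie to the right of the WT points in all 11 classes, most closely in pDC-like cells (932 and 1136 CPM).

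To compare cells of unequal depth, each cell was thinned to 1500 UMIs in 1 random draw and shallower cells (734 WT and 958 cit) were left out. Ly6a was then found in 1.43% of 7080 WT and 5.11% of 10567 cit cells (3.67% and 14.3% without thinning). In pDC-like cells the shares were 55.7% (45.2 to 65.8) and 59.8% (49.6 to 69.4), which overlap. In Ffar2+ cDC2-like cells they were 0.375% (0.138 to 0.813) and 4.14% (3.54 to 4.80), and in cDC1-like cells 3.00% (1.72 to 4.83) and 12.3% (9.85 to 15.04). In Ccr2+ cDC2-like cells, 0 of 193 WT cells kept a UMI in this draw, where 3 counts would be 1.55% of the cells, against 9.43% of 615 cit cells. The WT value depended on the draw, and the mean over all possible draws was 2.41% in WT and 10.3% in cit cells. At 3000 UMIs the shares were 5.73% and 15.7%, and without thinning 9.74% and 30.0%, at median depths of 10194 and 8178.5 UMIs. Without thinning, 12.4% of WT and 50% of cit cDC1-like cells had a Ly6a UMI, but the cit cells were deeper, with medians of 9380 and 14077 UMIs. The intervals also lay apart in other cDC2-like, proliferating and Adgrl3-rich cells and overlapped in the remaining classes. Most positive cells had 1 UMI. Of the thinned cit Ffar2+ cells, 130 had 1, 34 had 2 or 3 and 2 had 4 or more.

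**Figure D3:**
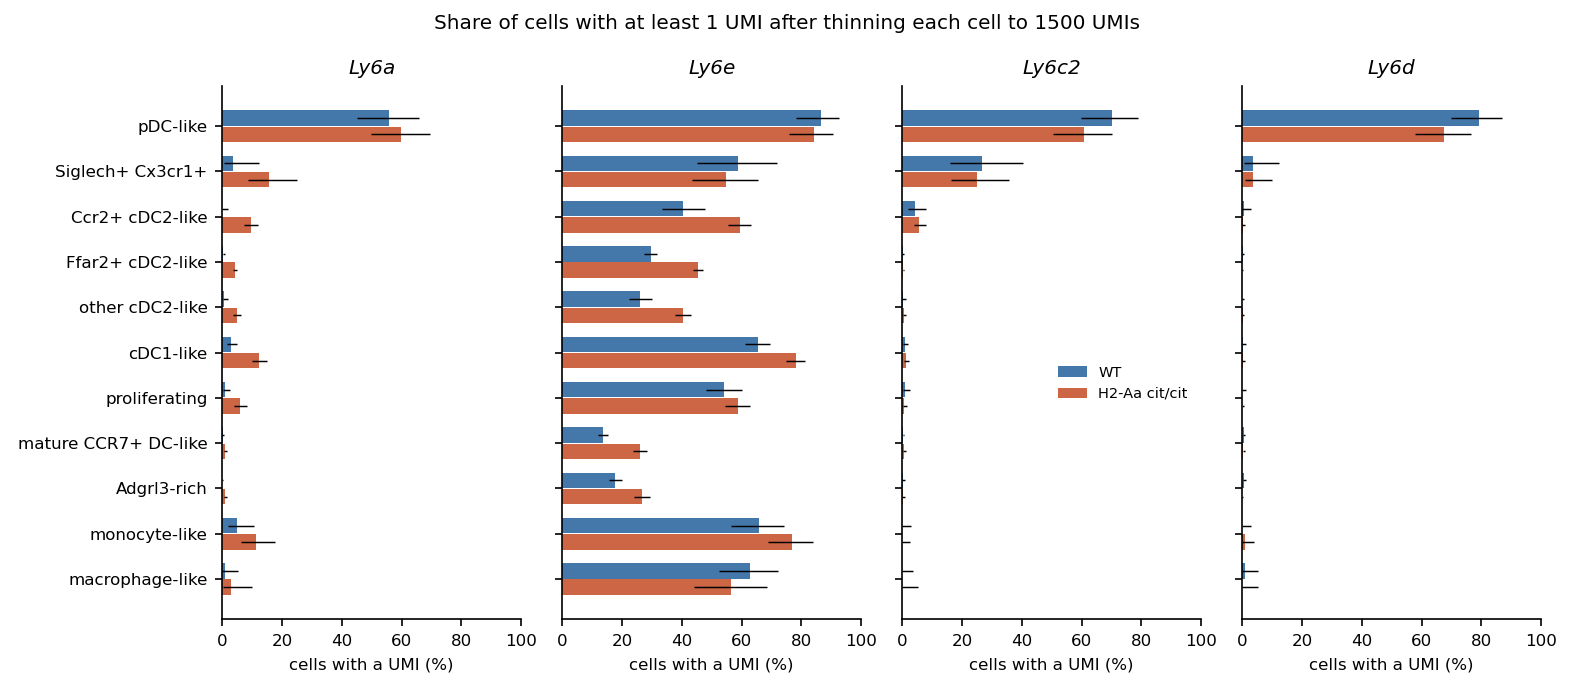
Share of cells (%) with at least 1 UMI of each member gene after thinning to 1500 UMIs, by class, in the WT (blue) and H2-Aa cit/cit (orange) library; lines are exact 95% Clopper-Pearson intervals. For Ly6e the bars of cDC2-like, cDC1-like and mature CCR7+ cells are longer in the cit library (29.5% and 45.4% in Ffar2+ cells), while for Ly6d the pDC-like bars, 79.4% and 67.6%, are the longest.

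The number of Ly6d UMIs for each Ly6a UMI varied between classes. In pDC-like cells it was 2.22 in WT and 1.33 in cit cells. Mature CCR7+ WT cells had 26 Ly6d and 19 Ly6a UMIs (1.37) and Adgrl3-rich WT cells 11 and 1, whereas the other WT classes lay between 0 in proliferating and 0.367 in Ffar2+ cDC2-like cells. In the cit library the classes other than pDC-like cells lay between 0 in macrophage-like and 0.114 in Siglech+ Cx3cr1+ cells, with 0.0182 in Ffar2+ and 0.00271 in cDC1-like cells. The part of pDC RNA in the Ly6a counts of other classes was not tested. The summed level of the 10 pDC markers in Ffar2+ cells was 634 CPM in WT, with 9 detected and Klk1 at 0, and 498 CPM in cit cells, with 10 detected. In cDC1-like cells it was 315 and 188 CPM, with 9 of 10 detected in both libraries and Klk1 at 0. In pDC-like cells it was 11473 and 11165 CPM. It was also 825 CPM in monocyte-like WT cells, with Siglech and Klk1 at 0, and 923 CPM in Adgrl3-rich WT cells. The sum thus does not measure pDC RNA alone. Siglech alone had 3.01 UMIs for each Ly6a UMI in WT and 2.02 in cit pDC-like cells. In Ffar2+ cells this number was 1.12 and 0.111, and in cDC1-like cells 0.102 and 0.0144. It was highest, at 23, in WT Adgrl3-rich cells, which had 1 Ly6a UMI. No class here is known to lack Ly6a. The lowest thinned shares were those of WT cells, at 0 of 1152 in Adgrl3-rich cells, where 3 counts would be 0.26% and the share without thinning was 0.0805%, and at 0.197% in mature CCR7+ and 0.375% in Ffar2+ cells, and at this level free RNA and expression cannot be told apart.

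Ly6e was detected in every class, with levels between 130 and 1738 CPM in WT and between 253 and 1617 CPM in cit cells. It was highest in pDC-like cells of both libraries and lowest in mature CCR7+ and Adgrl3-rich cells. In mature CCR7+ cells the levels were 130 and 298 CPM, a log2 ratio of 1.19 (1.11 to 1.28), and 58 of 6418 genes had a higher ratio. Among mature cells without a cDC1 marker they were 117 and 250 CPM (1.09, 0.98 to 1.21), and among those with 1 or more 149 and 437 CPM (1.55, 1.42 to 1.68).

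In Adgrl3-rich cells Ly6e had levels of 134 and 253 CPM (log2 ratio 0.92, 0.76 to 1.07). In Ffar2+ cDC2-like cells it was at 276 and 491 CPM (0.83, 0.78 to 0.89), and in other cDC2-like cells at 259 and 469 CPM (0.86, 0.74 to 0.98). These 4 classes, in which Ly6e was at least 1.5-fold higher, were the ones with the lowest WT levels. The ratios were smaller in cDC1-like cells (828 and 1087 CPM, 0.39, 0.34 to 0.44), Ccr2+ cDC2-like cells (502 and 652 CPM, 0.38, 0.28 to 0.48) and proliferating cells (720 and 780 CPM, 0.11, 0.04 to 0.19).

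In the remaining classes Ly6e was not higher in the cit library. The levels were 1738 and 1617 CPM in pDC-like cells (log2 ratio -0.10, -0.21 to 0.003) and 874 and 774 CPM in Siglech+ Cx3cr1+ cells (-0.18, -0.34 to -0.01). In monocyte-like cells they were 970 and 972 CPM (0.00, -0.14 to 0.14) and in macrophage-like cells 785 and 764 CPM (-0.04, -0.22 to 0.14). The intervals thus lay above 0 in 7 classes, below 0 in 1 and across 0 in 3. They cover counting error only and narrow as counts rise. The share of all genes whose interval excludes 0 was not counted, so nothing is read from these numbers of classes. The lower level in Siglech+ Cx3cr1+ cells depended on the gate, and with every cell put in the class of which it had the highest share of markers the log2 ratio was 0.085.

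After thinning, 28.8% of WT and 44.1% of cit cells had a Ly6e UMI. In Ffar2+ cDC2-like cells the shares were 29.5% (27.3 to 31.8) and 45.4% (43.9 to 47.0), with 1.37 and 1.55 UMIs per cell that had 1 or more. In cDC1-like cells they were 65.5% (61.3 to 69.5) and 78.2% (74.9 to 81.3), and in mature CCR7+ cells 13.6% (12.1 to 15.1) and 26.0% (23.7 to 28.5). In pDC-like cells the shares were 86.6% and 84.3%, with overlapping intervals.

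**Figure D4:**
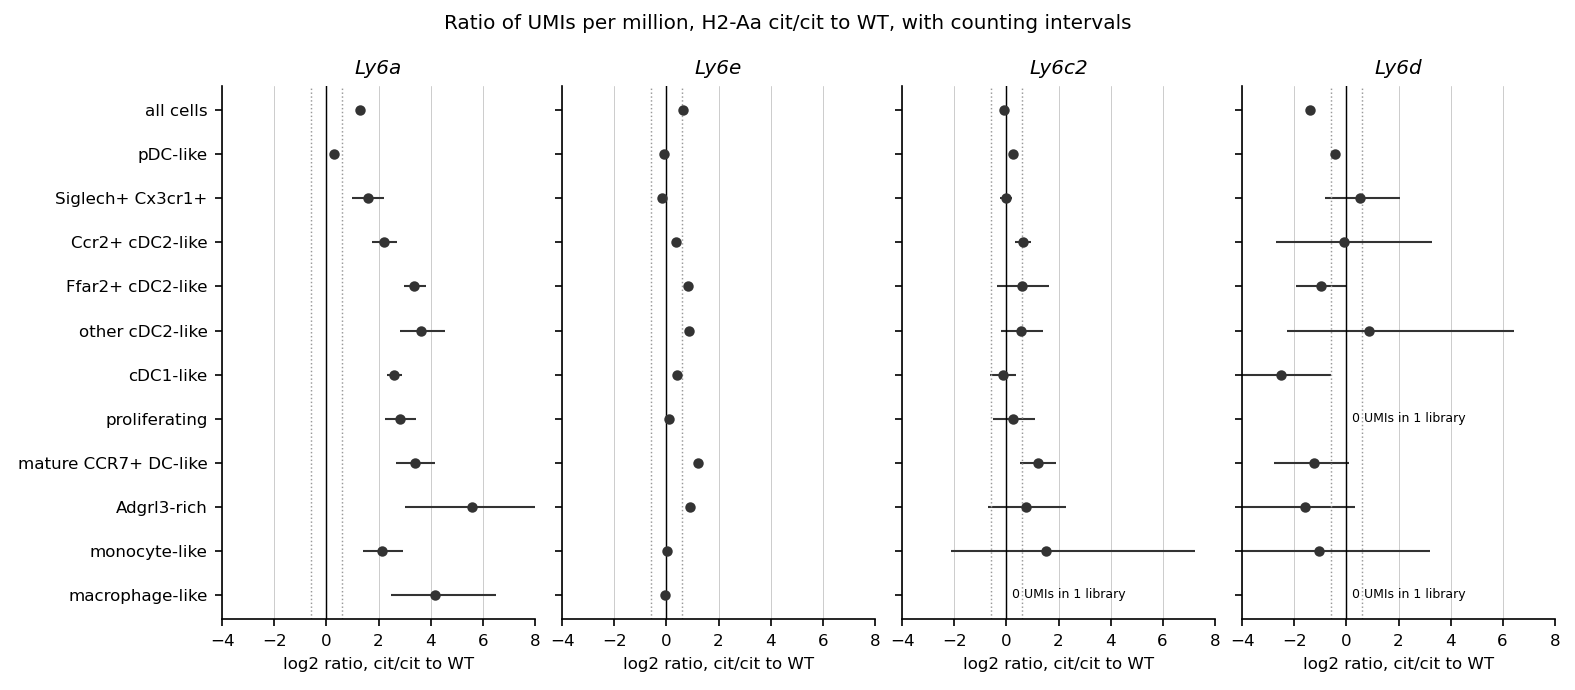
Log2 ratio of CPM in the cit against the WT library, for each member gene over all cells and in 11 cell classes; points are ratios, bars exact 95% intervals that cover counting error (cut at the edges of the axis), dotted lines mark 1.5-fold, and classes with 0 UMIs in at least 1 library are written out. All 11 class ratios of Ly6a lie above 0, those of Ly6e run from -0.18 to 1.19, and most of those of Ly6c2 and Ly6d have wide intervals that include 0.

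Ly6c2 formed a gradient from pDC-like cells (1142 CPM in WT and 1375 CPM in cit) over Siglech+ Cx3cr1+ cells (424 and 421 CPM) to Ccr2+ cDC2-like cells (57.1 and 87.6 CPM), and these 3 classes did not overlap in either library. The remaining classes of the 11 were at or below 10.4 CPM. NK-like cells, not among the 11, had 42 Ly6c2 UMIs of 188669 in WT and 28 of 161101 in cit cells. Unassigned cells held 10.2% of the WT and 9.13% of the cit UMIs of Ly6c2. Both groups were at higher levels than Ccr2+ cells. In Siglech+ Cx3cr1+ cells, 251 WT and 367 cit UMIs gave a log2 ratio of -0.01 (-0.25 to 0.23). In pDC-like cells the ratio was 0.27 (0.15 to 0.39), yet without the 5% of cells with the most UMIs in each library it was 0.10 (-0.02 to 0.23). The share of pDC-like cells with Ly6c2 after thinning was 70.1% (60.0 to 79.0) in WT and 60.8% (50.6 to 70.3) in cit cells, so neither direction held on both measures. In Ccr2+ cells the ratio was 0.62 (0.32 to 0.93), but 0.03 (-0.24 to 0.31) with a gate of 1 more marker.

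The other classes held Ly6c2 in few cells. In WT cDC1-like cells, 34 of 56 UMIs were in 1 cell. Mature CCR7+ cells had 33 WT and 41 cit UMIs (log2 ratio 1.198, 0.50 to 1.90), and the mean over cells of UMIs per 10000 gave -0.061. Monocyte-like cells, gated on Ace and Fabp4, had 1 and 3 UMIs, so that the marker of classical monocytes was near 0 there. Macrophage-like cells had 9 UMIs in WT, 6 of them in 1 cell, and 0 in cit cells. Set against 3 UMIs over the class this was 1.91-fold lower. The interval of cit to WT, which covers the counting error of the 9, reached up to 0.795-fold. Of the 2575 cit UMIs, 180 (6.99%) were in 17 neutrophil-like cells.

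Ly6d was found mainly in pDC-like cells, which had 2115 of 2399 UMIs in WT (88.2%) and 1109 of 1279 in cit cells (86.7%). Unassigned cells, among them cells that mixed pDC and myeloid markers, had 8.25% and 8.44%. The pDC-like level was 2068 CPM in WT and 1514 CPM in cit cells, a log2 ratio of -0.45 (-0.56 to -0.34), and 87.9% of 7079 genes had a higher ratio. This is within 1.5-fold, while the ratio over all cells was -1.42, beside the smaller share of pDC-like cells in the cit library. After thinning, Ly6d was found in 79.4% (70.0 to 86.9) of WT and 67.6% (57.7 to 76.6) of cit pDC-like cells, with 4.25 and 3.17 UMIs per cell that had it, and 48.5% and 23.5% of pDC-like cells had 4 or more UMIs. The median depth of pDC-like cells was 10153 UMIs in WT and 7249 in cit cells before thinning.

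Outside pDC-like cells Ly6d was at 11.8 and 17.2 CPM in Siglech+ Cx3cr1+ cells, from 7 and 15 UMIs, 9 of the latter in 1 cell. The other classes of the 11 were at or below 2.55 CPM in WT and 1.12 CPM in cit cells, and their intervals overlapped those of their neighbors. The 4 B-like WT cells, not among the 11 classes, had 7 UMIs. The thinned shares in Ffar2+ cells were 0.187% in WT and 0.0499% in cit cells, at median depths of 7357 and 6438.5 UMIs, and the means over all possible draws were 0.269% and 0.144%. Free RNA and expression cannot be told apart at such shares. In cDC1-like cells, 11 WT and 3 cit UMIs gave a log2 ratio of -2.51 (-4.99 to -0.59).

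Within pDC-like cells, the members were often found together. After thinning, pairs of members were found in 43.1% (Ly6a and Ly6c2, cit) to 75.3% (Ly6e and Ly6d, WT) of pDC-like cells. Both Ly6a and Ly6d were in 53.6% of 97 WT (43.2 to 63.8) and 50% of 102 cit pDC-like cells (39.9 to 60.1). The product of the single shares was 44.2% and 40.5%, within both intervals. In Ffar2+ cDC2-like cells Ly6a and Ly6e occurred together in 2.82% of 4010 cit cells (2.33 to 3.38), against a product of 1.88%. Of the Ly6a-positive cit Ffar2+ cells, 68.1% had Ly6e, compared with 44.4% of the others. Cells were thinned to equal depth for these shares, and cells of 1 library are not replicates.

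Among 40 further genes of the Ly6 and uPAR family, none reached 20 CPM over all cells in either library, 15 had 0 UMIs in both and 12 had more than 10 in either. Some of these are named here after their values were seen. Ly6i, with 86.3% identical coding bases the nearest to Ly6a among the genes compared, had 182 UMIs in WT (3.57 CPM) and 757 in cit cells (10.4 CPM). It was highest in monocyte-like cells (59.5 and 68.1 CPM) and had 0 UMIs in WT and 8 in cit pDC-like cells, whereas pDC-like cells headed the order of Ly6a. In Ccr2+ cDC2-like cells Ly6i was at 9.6 and 31 CPM. Plaur, the urokinase receptor, was at 11.3 and 14.9 CPM over all cells.

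Genes of the interferon response were measured beside the members, since Ly6a, Ly6e and Ly6c2 are known among them. Over all cells Ly6c2 had a log2 ratio of -0.094, which turned to 0.52 without pDC-like cells. Its intervals lay above 0 in 3 of 11 classes, below 0 in 1 and across 0 in 7, with no share of all genes to set beside these counts. Of 43 interferon-stimulated genes listed, none a member, 41 were in the count tables and 32 reached 20 CPM over all cells. Of these, 15 were at least 1.5-fold higher in cit cells and 0 were lower, against 3.57% and 7.2% of all genes. Among the 15, Ifit1, Ifit2, Ifit3, Oas1a, Oas2, Ifi47 and Isg20 reached 20 CPM in the cit library only. The counts by class below used the same minimum, so they can also hold genes that passed through 1 library. The median log2 ratio of the 32 genes was 0.56, against 0.01 over all genes. The highest ratios were those of Isg20, an exonuclease (14 and 38.6 CPM, 1.47), and Oasl2, a 2′-5′-oligoadenylate synthetase-like gene (27.2 and 66 CPM, 1.28). The lowest were those of Phf11b (110 and 93.2 CPM, -0.24) and Gbp2, a guanylate-binding GTPase (27.7 and 25.3 CPM, -0.13). Ratios over all cells can also depend on the shares of the classes. In mature CCR7+ cells the log2 ratio was 0.30 for Phf11b and 0.26 for Gbp2. Other classes went either way, with Phf11b at -0.16 in Ccr2+ cDC2-like cells. Gbp2 was at 2.49 in cDC1-like and -0.19 in monocyte-like cells.

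By class, the median log2 ratio of the interferon-stimulated genes was 0.15 in pDC-like cells, where 4 of 24 were higher and 1 lower, and 0.22 in Siglech+ Cx3cr1+ cells, with 6 of 24 higher. It was 0.38 in Ffar2+ (11 of 33 higher), 0.53 in Ccr2+ (15 of 32) and 0.60 in other cDC2-like cells (17 of 32). In cDC1-like cells it was 0.52 (11 of 22), in mature CCR7+ cells 0.41 (11 of 25, with 1 lower), in proliferating cells 0.97 (21 of 30) and in Adgrl3-rich cells 0.40 (10 of 28). Monocyte-like cells had a median of 0.43 (15 of 33) and macrophage-like cells 0.72 (17 of 33, with 1 lower). The shares of all genes at least 1.5-fold higher, listed by class with Ly6a above, ran from 2.07% in Ffar2+ cDC2-like to 12.5% in macrophage-like cells. The share of all genes at least 1.5-fold lower was 7.6% in pDC-like, 10.1% in Siglech+ Cx3cr1+, 2.12% in Ccr2+, 1.49% in Ffar2+ and 4.58% in other cDC2-like cells. It was 6.58% in cDC1-like, 2.28% in proliferating, 4.99% in mature CCR7+, 2.42% in Adgrl3-rich, 10.1% in monocyte-like and 12.8% in macrophage-like cells. The part of the list in the Ly6 ratios was not tested.

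Of 10 receptor and signalling genes of the interferon pathway, 9 reached 20 CPM over all cells, 0 were at least 1.5-fold higher and 1 was lower, against 3.57% and 7.2% of all genes, with a median log2 ratio of -0.14. In cDC1-like cells 2 of 10 were higher, against 9.27% of all genes there, namely Irf1, a transcription factor (75.1 and 126 CPM, 0.74), and Socs1, an inhibitor of cytokine signalling (10.2 and 26.1 CPM, 1.36). In the other 10 classes 0 were higher, and 1 was lower, Socs1 in pDC-like cells (22 and 8 UMIs, -0.98, -2.35 to 0.24). Irf1 and Socs1 are named after their values were seen. Socs1 reached 20 CPM in the cit library only in cDC1-like cells and in the WT library only in pDC-like cells. Over all cells the highest were Ifngr1 (336 and 382 CPM, 0.19) and Ifnar2 (201 and 226 CPM, 0.17), subunits of the type II and type I interferon receptors. The lowest were the Janus kinases Tyk2 (99.3 and 64.8 CPM, -0.62) and Jak2 (605 and 442 CPM, -0.45). Of 28 genes that build or attach the GPI anchor, 13 reached 20 CPM over all cells, with a median of 0.03. Of these, 0 passed 1.5-fold in either direction, against 3.57% higher and 7.2% lower among all genes. The highest were Dpm3 (38.8 and 55.4 CPM, 0.51) and Dpm2 (28.6 and 37.5 CPM, 0.39), subunits of dolichol-phosphate mannose synthase, and the lowest Pgap2 (95.8 and 77.8 CPM, -0.30) and Pign (61.6 and 53.8 CPM, -0.19), which act in remodelling and assembly of the anchor. These ratios over all cells can also depend on the shares of the classes. Mature CCR7+ cells held 31.2% of WT and 11.9% of cit UMIs. In that class the log2 ratio was 0.09 for Pgap2, -0.17 for Pign, -0.04 for Jak2 and -0.37 for Tyk2. Within some classes anchor genes did pass 1.5-fold. The class with the largest number was macrophage-like cells, with 3 higher and 2 lower of 16, against 12.5% and 12.8% of all genes there. Monocyte-like cells had 1 higher and 2 lower of 16, against 6.87% and 10.1%.

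**Figure D5:**
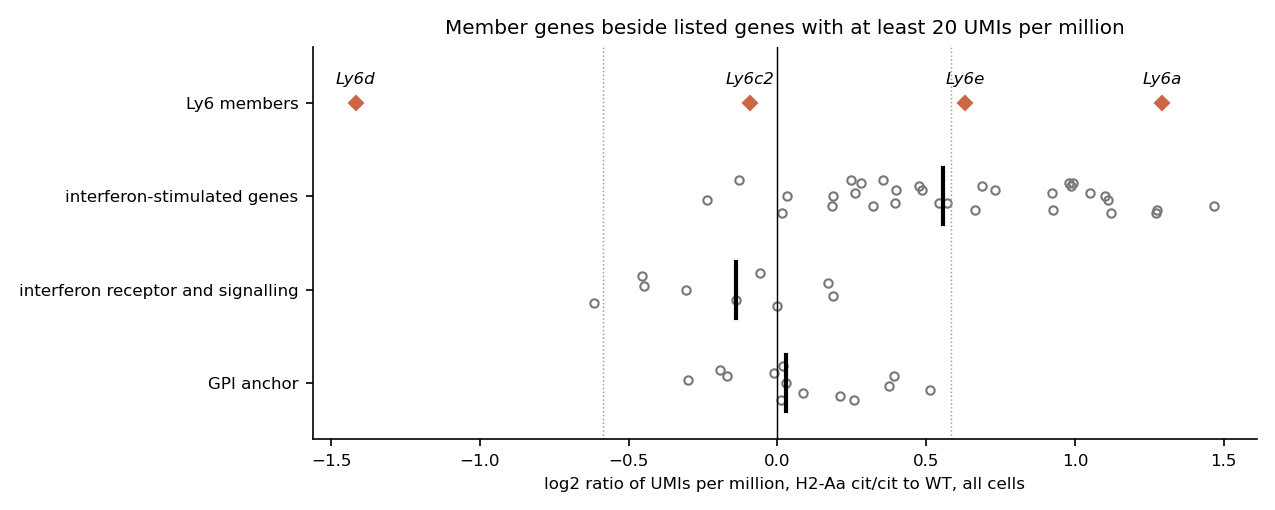
Log2 ratio of CPM over all cells, cit against WT library, for the 4 members (diamonds) and for listed genes that reached 20 CPM in 1 library or both (circles; black bars are list medians, dotted lines 1.5-fold). The circles of the interferon-stimulated genes are mostly to the right of 0, with a median of 0.56, while the medians of receptor and signalling genes (-0.14) and GPI anchor genes (0.03) are near 0.

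The genes whose levels over the 11 WT classes were most like those of each member were found by Pearson's r of log2(CPM + 5) among 5920 genes with at least 50 CPM in 1 class or more. For Ly6a these were Selenot (r = 0.965 in WT and 0.815 in cit), Notch1 (0.964 and 0.931) and Arhgap27os2 (0.954 and 0.820). For Ly6e they were Rpn2, an oligosaccharyltransferase subunit (0.946 and 0.693), Reep5 (0.945 and 0.898) and Tmed10, a cargo receptor of the early secretory pathway (0.945 and 0.766). Ly6c2 was most like Upb1 (0.987 and 0.924), Lefty1 (0.981 and 0.943) and Bst2, the pDC antigen tetherin (0.970 and 0.930). Ly6d was most like Gm21762 (0.996 and 0.997), Lynx1, another gene of the Ly6 family (0.991 and 0.976), and Paqr5 (0.989 and 0.996). Lynx1 had 56 of its 71 WT UMIs and 18 of its 46 cit UMIs in pDC-like cells. In WT, Ly6d was at 2068 CPM in pDC-like cells and at 11.8 CPM in the next class. Its r values were thus set largely by 1 class, so that other genes found mainly in pDC-like cells also score high. The classes of a library share its depth, and r over 11 classes is a description. Between members, r was highest in WT for Ly6a with Ly6d (0.906) and in cit cells for Ly6a with Ly6e (0.907), where that with Ly6d was 0.811.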

How the data were processed

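Splenic CD45.2+ CD11c+ cells were measured in 1 library per genotype. The deposited values are raw counts of UMIs per gene and cell, made by the authors with Cell Ranger 5.0.1 and not normalized. Cell Ranger and Seurat are named in the submitters' processing notes. The barcode and gene lists deposited beside the counts were used as labels, and 0 columns of other samples were met.

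Both libraries hold called cells with at least 500 UMIs, and all were kept. Classes came from the number of listed markers detected per cell, with no clustering. Cells with 3 or more markers of another lineage were set aside first, and cells mixing pDC and myeloid markers were left unassigned. No doublet caller was run. Thresholds of the gates were set after the counts had been seen, and the members and lists were chosen with earlier results of these data known.

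UMIs were summed per class and library and scaled to the class total (CPM). Levels carry exact Poisson, ratios exact conditional binomial and shares Clopper-Pearson intervals at 95%, which cover counting error only. A count of 0 was set to 3 UMIs for bounds. Calls needed 20 CPM in either library and 1.5-fold. No test was run, so no p-value is given. The text names the 4 members, family genes with at least 20 CPM, the 2 highest and 2 lowest ratios of each other list, the 3 genes most like each member, H2-Aa and the gate markers, and it says where a gene was added after its values were seen. The shares used cells thinned to 1500 UMIs, with 3000 as the alternative. Python 3.11.15 was used, with pandas 2.3.3 and numpy 2.4.6 for sums, scipy 1.17.1 for intervals, Biopython 1.88 for alignments and matplotlib 3.10.9 for figures. The calculation was tested on simulated data. Gene positions were taken from GENCODE M21 and start regions from RefSeq.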

Additional observations from a re-analysis of the deposited data

Results flagged for a closer look

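Intervals of Ly6e lay above 0 in some classes and below 0 in another. The log2 ratio of cit to WT was 1.19 in mature CCR7+, 0.92 in Adgrl3-rich, 0.86 in other cDC2-like, 0.83 in Ffar2+ cDC2-like, 0.39 in cDC1-like, 0.38 in Ccr2+ cDC2-like and 0.11 in proliferating cells, and -0.18 in Siglech+ Cx3cr1+ cells. Ly6c2 was at 0.27 in pDC-like, 0.62 in Ccr2+ cDC2-like and 1.198 in mature CCR7+ cells, whereas in macrophage-like cells it was at least 1.91-fold lower in the cit library, from 9 and 0 UMIs. With 1 library per genotype, these differences between classes were not tested.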

How the results depend on the processing

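No paired analysis was possible because there was 1 library per genotype, so that the shared replicate number pairs nothing. Of the 45 log2 ratios of a member over all cells or in a class, 28 had an interval that excluded 0. The share of all genes with such an interval was not counted. Of the 28, 25 turned under none of the alternatives run, that is, the ratio stayed on 1 side of 0. Those that turned were Ly6c2 over all cells (-0.09), Ly6e in Siglech+ Cx3cr1+ cells and Ly6c2 in mature CCR7+ cells. Ly6c2 over all cells was at 0.12 as a mean over cells of UMIs per 10000 and 0.52 without pDC-like cells. Ly6e in Siglech+ Cx3cr1+ cells was at 0.085 in the class with the highest share of its list. Ly6c2 in mature CCR7+ cells was at -0.061 as a mean over cells. Some of the 25 came near 0 under an alternative. The lowest values were 0.028 for Ly6c2 in Ccr2+ cDC2-like cells, 0.035 for Ly6c2 in pDC-like cells and 0.0039 for Ly6e in proliferating cells. Over all cells, Ly6a was at 1.48 as a mean over cells and 2.62 without pDC-like cells, Ly6e at 0.70 with mitochondrial and ribosomal protein genes left out of the total and 0.71 without pDC-like cells, and Ly6d at -0.96 as a mean over cells, -1.28 without the 5% of cells with the most UMIs and -1.26 without pDC-like cells. With pDC-like cells left out, unassigned cells still held 198 WT and 108 cit UMIs of Ly6d. In Adgrl3-rich cells, Ly6a was at 2.59 (127 and 1320 UMIs) in the class with the highest share of its list. With mitochondrial and ribosomal protein genes left out of the total, every ratio rose by between 0.018 and 0.066 on the log2 scale, and the median of all genes lay between -0.013 and 0.12. With a minimum of 50 CPM, 6 of 20 interferon-stimulated genes were at least 1.5-fold higher over all cells, against 3.87% of 3953 genes. Among the 6, Irf7, Rtp4 and Oasl2 reached 50 CPM in the cit library only. With 10 CPM, 1 of 2 genes of the Ly6 and uPAR family was at least 1.5-fold higher, against 3.61% of 8829 genes. This was Ly6i, at 3.57 CPM in WT and 10.4 CPM in cit cells. It reached 10 CPM in the cit library only, so nothing is read from this count. Leaving out pDC-like cells, barcodes in both libraries or the cell with the most UMIs of a gene, the split of mature cells by cDC1 markers and the mean over all possible draws of 1500 UMIs were chosen after seeing the data. Differences in the share of cells kept within their interval in 33 of 48 cases at 3000 UMIs per cell and in 48 of 48 as the mean over all draws of 1500. Depth limits Ly6d and Ly6c2 outside the classes that hold them, where most counts were below 50 UMIs.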
